A study of Homo sapiens with 6 samples.

Results

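Genes that cells use to adapt to low oxygen and to break down glucose were followed in CAL27 cells, a human oral adenosquamous carcinoma line. The set holds 42 of the 30178 genes in the deposited RNA-seq table. It is made of 2 HIF alpha subunits, 17 known HIF target genes outside glycolysis, 6 transporters and regulators of glucose flux, and 17 glycolytic enzymes. The genes were chosen by name, and each was matched to its Ensembl ID. All 42 were present, and 38 had a mean of at least 1 FPKM (fragments per kilobase of transcript, scaled to library depth) over the libraries and entered the test.

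The study has 3 stable lines with 2 libraries each, named A and B. The Q311E line expresses MB21D2, a protein of the Mab-21 domain family, fused to GFP and with glutamate in place of 1 glutamine (Q311E). The wild-type line expresses the GFP fusion of unaltered MB21D2, and the vector line carries the empty vector. All lines were grown in serum-containing medium with the selection drug G418, and the labels name no low-oxygen treatment. The labels do not say whether a line is 1 clone or a pool, nor whether libraries A and B are separate cultures. All p-values therefore rest on the spread between the libraries of a line, and that spread may be technical.

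MB21D2 stood at 32.8 and 21.2 FPKM in Q311E A and B, at 104 and 106 FPKM in the wild-type libraries, and at 8.31 and 7.15 FPKM in the vector libraries. The Q311E and wild-type lines thus differ in MB21D2 level as well as in sequence, and the effects of level and sequence cannot be told apart. The libraries held between 20645410 and 24147306 reads. At least 8 of 9 squamous epithelial markers reached 1 FPKM in every library. KRT14, the basal keratin, was at 0.771 and 0.902 FPKM in Q311E, at 2.08 and 2.35 FPKM in wild type, and at 762 and 697 FPKM in vector. Summed fibroblast markers were between 2.56 and 3.86 FPKM in all libraries. The endothelial sum came almost wholly from CDH5, at 22.6 and 35.2 FPKM in Q311E A and B, 15.9 and 15.4 FPKM in wild type and 19.9 and 21.3 FPKM in vector, with PECAM1 at or below 0.317 FPKM. CDH5 was called higher in Q311E against wild type by limma (0.81 ± 0.20 on the log2 scale, SE; adjusted p = 0.0376). The leukocyte sum came almost wholly from CD14, at 4.93 and 18.8 FPKM in Q311E, 2.39 and 2.56 FPKM in wild type and 1.78 and 3.17 FPKM in vector, while PTPRC was at or below 0.00478 FPKM.

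Hypoxia-inducible factor (HIF) is a pair of an oxygen-labile alpha subunit, encoded by HIF1A or EPAS1, and the stable partner ARNT. With oxygen present, the EGLN prolyl hydroxylases mark the alpha subunit for the VHL ubiquitin ligase, so that HIF activity is set mostly at the protein and is not read from HIF1A RNA alone. Without oxygen the pair binds DNA at a short core, ACGTG or GCGTG, near genes for blood vessel growth, acid handling, mitophagy, glucose uptake and glycolysis. Glycolysis itself turns glucose into pyruvate and lactate, and many carcinoma lines run it at a high rate in culture with oxygen.

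The letters of that core were looked up in the promoters listed by RefSeq on GRCh38.p14, which span 250 bases before to 50 bases after each start. Entries existed for 38 of the 42 genes. The core ACGTG, on either strand, lay in at least 1 listed promoter of 9 of 14 HIF targets outside glycolysis (64.3%), 11 of 17 glycolytic enzymes (64.7%), 3 of 5 transporters and regulators, and neither of the 2 alpha subunits, against 24.9% of all 27305 genes listed. Counted by promoter, it lay in 9 of 17 (52.9%), 15 of 37 (40.5%), 3 of 11 (27.3%) and 0 of 3, against 21.4% of all 35116 promoters. The other form, GCGTG, lay in 8 of the 17 promoters of HIF targets (47.1%), 14 of the 37 of enzymes (37.8%), 5 of the 11 of transporters and regulators (45.5%) and 2 of the 3 of alpha subunits, against 36.5% of all. At least 1 of the forms lay in 82.4%, 62.2%, 72.7% and 66.7% of those promoters, against 48.4% of all. Genes with several promoters have more chances of a match, and a match describes letters, not binding. Shown here are promoters of 3 HIF targets and 2 enzymes, each of which holds ACGTG. Of these genes, CA9 and LDHA were not called by limma in any comparison. Among other called members, MXI1, SLC16A3 and PFKM hold ACGTG in at least 1 promoter shown in the list. The listed promoters of the called members ADM, PFKFB4, SLC2A1, PFKL and LDHB hold none. Capitals mark ACGTG or its reverse complement CACGT; where both strands match at the same place the run reads CACGTG. CA9 lies at chr9:35673678-35673977 on the plus strand, DDIT4 at chr10:72273674-72273973 plus, BHLHE40 at chr3:4979187-4979486 plus, ALDOC at chr17:28576846-28577145 minus and LDHA at chr11:18394313-18394612 plus, and each is written 5′ to 3′ on the strand of its gene.
CA9: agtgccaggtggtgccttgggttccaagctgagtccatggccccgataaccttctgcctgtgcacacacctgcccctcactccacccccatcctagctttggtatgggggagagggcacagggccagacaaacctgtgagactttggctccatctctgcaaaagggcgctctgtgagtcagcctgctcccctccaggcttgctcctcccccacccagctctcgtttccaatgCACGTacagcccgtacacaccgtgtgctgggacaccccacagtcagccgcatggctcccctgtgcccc
DDIT4: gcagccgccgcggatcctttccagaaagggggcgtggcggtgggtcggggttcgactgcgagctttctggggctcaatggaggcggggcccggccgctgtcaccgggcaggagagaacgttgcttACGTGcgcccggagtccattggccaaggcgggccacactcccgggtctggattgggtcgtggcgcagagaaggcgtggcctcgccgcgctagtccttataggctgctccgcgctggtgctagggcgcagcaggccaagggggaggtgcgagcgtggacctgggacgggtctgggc
BHLHE40: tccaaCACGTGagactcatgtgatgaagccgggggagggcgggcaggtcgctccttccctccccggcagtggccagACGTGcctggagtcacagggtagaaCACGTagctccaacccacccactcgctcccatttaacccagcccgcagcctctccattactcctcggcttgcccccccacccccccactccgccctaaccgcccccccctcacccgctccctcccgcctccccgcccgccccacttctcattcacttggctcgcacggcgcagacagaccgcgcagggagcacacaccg
ALDOC: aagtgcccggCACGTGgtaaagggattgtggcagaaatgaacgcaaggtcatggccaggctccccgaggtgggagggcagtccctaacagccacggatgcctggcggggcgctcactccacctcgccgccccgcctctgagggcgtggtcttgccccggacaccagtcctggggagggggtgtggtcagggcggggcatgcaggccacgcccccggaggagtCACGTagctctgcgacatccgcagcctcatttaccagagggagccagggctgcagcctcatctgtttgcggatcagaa
LDHA: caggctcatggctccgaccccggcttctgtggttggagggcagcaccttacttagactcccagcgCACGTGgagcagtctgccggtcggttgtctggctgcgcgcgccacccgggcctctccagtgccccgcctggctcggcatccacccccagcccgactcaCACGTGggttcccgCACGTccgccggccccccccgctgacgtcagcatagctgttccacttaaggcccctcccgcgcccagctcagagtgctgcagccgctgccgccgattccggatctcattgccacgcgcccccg
CA9 and DDIT4 each held 1 ACGTG match, at -18 and -125 relative to the start (position of its first base). BHLHE40 held 4 ACGTG matches, ALDOC 3 and LDHA 5, counting both strands. GCGTG, not capitalised here, matched 3 times in DDIT4, 2 times in ALDOC, 1 time in LDHA and 0 times in CA9 and BHLHE40. LDHA has 1 other listed promoter, which held no ACGTG and 1 GCGTG.

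The 2 Q311E libraries differed from each other more than those of the other lines. Over the 11481 genes tested, the difference of B over A on log2(FPKM + 1) had an SD of 0.436 in Q311E, 0.145 in wild type and 0.192 in vector. Where FPKM is given by library, Q311E A and Q311E B are therefore kept apart. Some genes are given only as a range or as a fold change over both Q311E libraries. The heat map of all tested members shows the pattern by library.

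**Figure D1:**
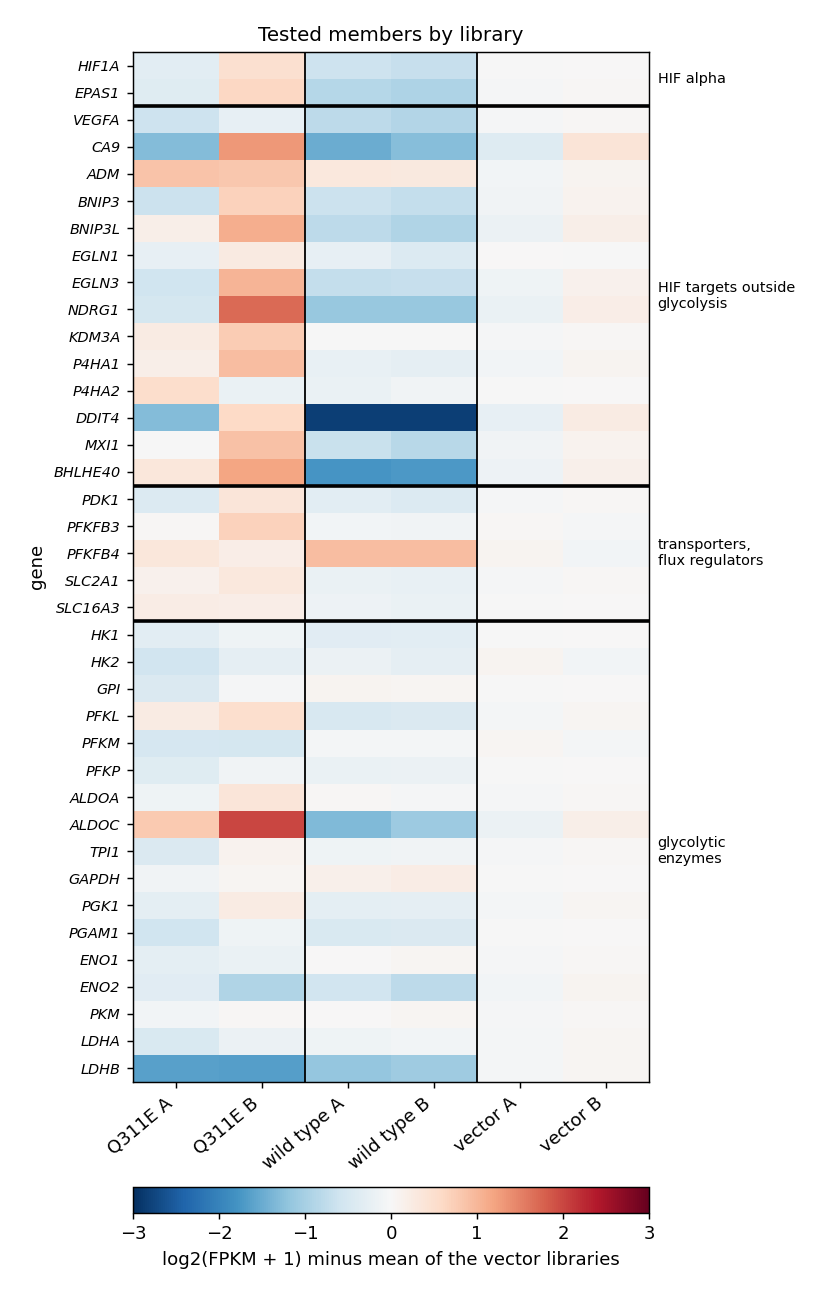
Heat map of the 38 tested genes (rows, grouped by role) in the 6 libraries (columns, Q311E, wild type and vector from left to right). Colour gives log2(FPKM + 1) minus the mean of the 2 vector libraries, red above and blue below. HIF targets outside glycolysis are mostly red in Q311E B and mostly blue in both wild-type libraries, while most glycolytic enzymes are pale in all libraries.

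Among the HIF targets outside glycolysis, Q311E B stood high, both wild-type libraries stood low, and Q311E A lay between them. Relative to the vector mean, the median of the 14 tested targets on log2(FPKM + 1) was -0.14 in Q311E A, 0.84 in Q311E B, -0.70 in wild type A and -0.78 in wild type B. The number above the vector mean was 6 of 14 in Q311E A, 12 of 14 in Q311E B and 1 of 14 in each wild-type library. Relative to the wild-type mean, 14 of 14 targets were higher in Q311E A, with a median of 0.50 (0.06 over all tested genes). Some of these differences were small, at 0.04 for BNIP3, 0.07 for EGLN1, 0.08 for CA9 and 0.10 for EGLN3. In Q311E B 13 of 14 were higher than the wild-type mean, with a median of 1.49 (0.03 over all tested genes). The shares of all genes above the vector and wild-type means were not counted. Q311E B held the highest of the 6 values for 11 of the 14 targets, a place it held for 27.4% of all tested genes. The lowest value was in wild type A for 5 targets and in wild type B for 7, libraries that held the lowest value of 15.7% and 21.0% of all tested genes.

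By their median against vector, the glycolytic enzymes moved less than the HIF targets in Q311E B and in wild type. In Q311E A the enzyme median lay further from vector, at -0.34 against -0.14 for the HIF targets. The enzyme median was -0.10 in Q311E B, -0.19 in wild type A and -0.18 in wild type B. The median of all tested genes lay between -0.06 and 0.02 in these libraries. For 11 of the 17 enzymes the lowest of the 6 values was in Q311E A, against 12.0% of all tested genes. Summed over the 17 enzymes, the level was 3182 and 3767 FPKM in Q311E A and B, 3747 and 3869.6 FPKM in wild type, and 3748 and 3874 FPKM in vector. Without GAPDH it was 1992 and 2419 FPKM in Q311E A and B, 2327 and 2372 in wild type, and 2469 and 2581 in vector. Wild type was then below vector without overlap. Summed over the 17 HIF targets outside glycolysis, it was 204 and 441 FPKM in Q311E A and B, 116 and 113 FPKM in wild type, and 236 and 299.5 FPKM in vector. The HIF target sums do not overlap between wild type and the other lines, while the vector sums fall between those of Q311E A and Q311E B. DDIT4 alone was at 50.2 and 189.7 FPKM in Q311E A and B and at 106 and 148 FPKM in vector. The order of Q311E A and vector in the sums depends on that gene. In these bulk samples, fewer cells that express a gene and less RNA per cell cannot be told apart.

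**Figure D2:**
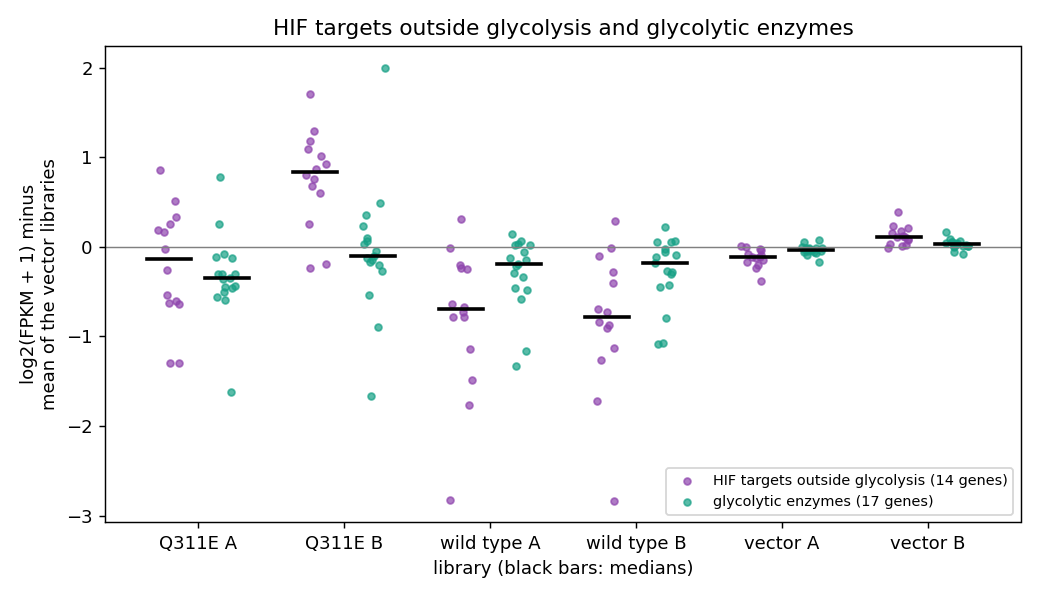
Each point is 1 gene in 1 library, as log2(FPKM + 1) minus the mean of the vector libraries, with 14 HIF targets outside glycolysis in purple and 17 glycolytic enzymes in green, and black bars at the medians. The medians of the HIF targets run from -0.78 in wild type B to 0.84 in Q311E B, and those of the enzymes from -0.34 in Q311E A to 0.03 in vector B.

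Differences between lines were tested with limma on log2(FPKM + 1), all 3 lines in 1 fit, and called at an adjusted p under 0.05 over all tested genes. Fold changes below are on that scale, which understates the change of genes with low FPKM. The 3 comparisons share libraries with each other, so their results are given side by side. In Q311E against wild type, 12 of 38 members were called, 9 higher and 3 lower, where 27.5% of all genes were called (17.5% higher and 10.1% lower). In Q311E against vector, 3 of 38 were called, 1 higher and 2 lower, where 18.0% of all genes were called (8.67% higher and 9.28% lower). In wild type against vector, 5 of 38 were called, 1 higher and 4 lower, where 12.3% of all genes were called (3.54% higher and 8.76% lower). The members' share was 31.6% in Q311E against wild type and 13.2% in wild type against vector, both near the share over all genes, and 7.89% in Q311E against vector, below it. The split of all called genes depended on scaling: 63.4% were higher in Q311E against wild type and 28.8% in wild type against vector, but 39.3% and 47.6% after each library was shifted to the same median. The members split 9 higher and 3 lower as deposited and 8 and 3 after that shift in Q311E against wild type, and 1 and 4 both ways in wild type against vector.

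The HIF targets outside glycolysis had a median log2 fold change of 0.86 in Q311E against wild type, 0.32 in Q311E against vector and -0.73 in wild type against vector, with all-gene medians of 0.05, 0.00 and -0.05. Of the 14 tested, 5 rose and 0 fell in Q311E against wild type, 1 rose and 0 fell in Q311E against vector, and 0 rose and 3 fell in wild type against vector. The glycolytic enzymes had medians of -0.05, -0.23 and -0.19 in the same order of comparisons. Of the 17 enzymes, 2 rose and 2 fell in Q311E against wild type. In Q311E against vector 0 rose and 2 fell, and in wild type against vector 0 rose and 1 fell. Of all genes, 17.5% rose and 10.1% fell in Q311E against wild type. These shares were 8.67% and 9.28% in Q311E against vector, and 3.54% and 8.76% in wild type against vector. Both wild-type libraries were below both vector libraries for 12 of 14 HIF targets and 11 of 17 enzymes, against 44.9% of all genes, and above both for 1 and 2, against 32.1%. Both Q311E libraries were above both wild-type libraries for 11 of 14 HIF targets and 2 of 17 enzymes, against 39.3% of all genes, and below both for 0 and 6, against 30.8%. Against vector, both Q311E libraries were above for 4 HIF targets and 2 enzymes (30.1% of all genes) and below for 1 and 10 (30.0%).

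Which Q311E library is used decides the comparison with vector. Without Q311E A, the HIF target median against vector was 0.84, and 11 of 14 targets were called higher and 1 lower, where 23.2% and 26.4% of all genes were called in those directions. Without Q311E B, the median was -0.14, and 2 targets were called higher and 5 lower, where 19.5% and 19.3% of all genes were called. The enzymes gave 4 higher and 4 lower without Q311E A, and 2 higher and 11 lower without Q311E B. Over all members, the calls of Q311E against vector numbered 25 without Q311E A, 24 without Q311E B, 2 without either wild-type library (2.33% and 2.38% of all genes without A and B) and 0 without either vector library (0.0261% of all genes in both fits). In the fits without a vector library 3 and 6 members, and 2333 and 2573 genes, had an unadjusted p under 0.05. Against wild type, all tested HIF targets but P4HA2 (0.67 in Q311E A and -0.03 in Q311E B) kept their direction with either Q311E library. Then 13 of 14 targets were called higher without Q311E A and 8 of 14 without Q311E B, and 0 lower in both, where 32.7% and 24.4% of all genes were called higher.

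Leaving out a wild-type or vector library ended most calls, over the whole table as among the members. Without either wild-type library, limma called 0 of 38 members and 0% of all genes in Q311E against wild type, although 12 members and 2911 genes (without A) and 12 members and 2836 genes (without B) had an unadjusted p under 0.05. Without vector A or B 6 of the 12 calls remained, namely ADM, BHLHE40, ALDOC, PFKL, PFKM and LDHB, where 8.66% and 8.70% of all genes were called. The 5 calls of wild type against vector all ended without any 1 wild-type or vector library. All genes called were then 0.0605% and 0.0604% without wild type A and B, and 0.0956% and 0.0784% without vector A and B, and between 6 and 8 members and between 1817 and 2311 genes had an unadjusted p under 0.05. All 5 remained without either Q311E library, in fits that called 27 members in all and 17.4% of all genes higher and 28.5% lower (without A) or 17.7% and 28.5% (without B). A fit of wild type and vector alone, whose libraries lie closer together, called 27 members, 2 higher and 25 lower, where 45.9% of all genes were called (17.5% higher and 28.4% lower). In that fit 11 of 14 HIF targets and 9 of 17 enzymes were lower, and 1 HIF target and 0 enzymes were higher. Fits of Q311E and vector alone and of Q311E and wild type alone called 2 and 5 members, 1 and 4 of them higher, where 2.28% (1.24% higher and 1.05% lower) and 8.47% (6.23% higher and 2.25% lower) of all genes were called.

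**Figure D3:**
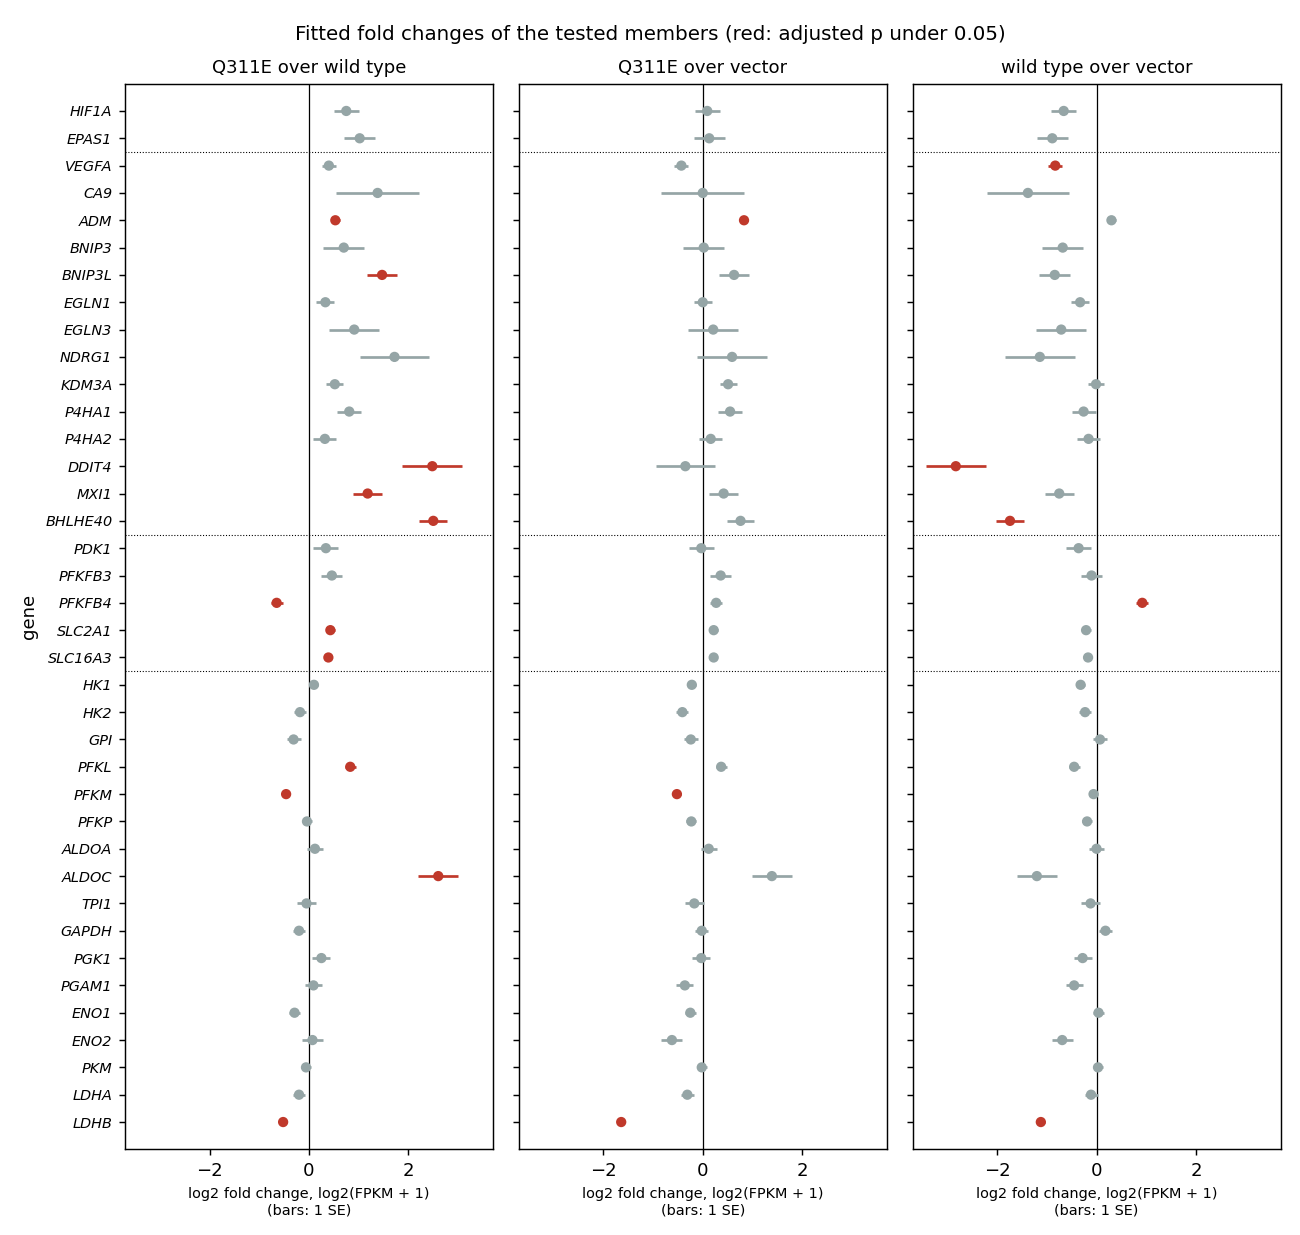
Fitted log2 fold changes on log2(FPKM + 1) of the 38 tested genes with bars of 1 SE, for Q311E over wild type, Q311E over vector and wild type over vector. Red points have an adjusted p under 0.05: 12, 3 and 5 genes in the 3 panels.

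HIF1A, the broadly expressed alpha subunit, was at 94.0 FPKM in Q311E A, 163 FPKM in Q311E B, 75.1 and 72.0 FPKM in wild type, and 117 FPKM in both vector libraries. Both wild-type libraries were lowest, and the Q311E libraries lay on either side of vector. Its log2 fold change was 0.75 ± 0.25 (SE; adjusted p = 0.0763) in Q311E against wild type, 0.09 ± 0.25 (0.837) in Q311E against vector and -0.66 ± 0.25 (0.144) in wild type against vector. EPAS1, which encodes the alpha subunit best known from endothelium and kidney, had the same order of libraries, with 11.2 and 23.1 FPKM in Q311E A and B, 7.64 and 7.28 FPKM in wild type, and 14.2 and 15.2 FPKM in vector. Its fold change was 1.02 ± 0.31 (adjusted p = 0.0594) in Q311E against wild type, 0.13 ± 0.31 (0.796) in Q311E against vector and -0.89 ± 0.31 (0.119) in wild type against vector. Neither alpha subunit passed the test in the fit of all 6 libraries, but both did under other settings. On TPM, EPAS1 was called higher in Q311E against wild type (adjusted p = 0.0462). In the fit of wild type and vector alone, HIF1A (0.000605) and EPAS1 (0.000565) were called lower in wild type. With 1 Q311E library left out, both were called in all 3 comparisons, and in Q311E against vector they were higher without Q311E A and lower without Q311E B.

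The rest of the HIF machinery was taken from a list of 16 genes, of which 13 were tested. In Q311E against wild type 2 rose and 1 fell, in Q311E against vector 1 rose and 2 fell, and in wild type against vector 2 rose and 0 fell. These are 23.1%, 23.1% and 15.4% of the 13, near the 27.5%, 18.0% and 12.3% of all genes. CITED2, which competes with HIF for the coactivator p300, was at 33.3 and 40.4 FPKM in Q311E, 25.7 and 27.4 FPKM in wild type and 16.7 and 18.5 FPKM in vector, with no overlap between lines. It rose by 0.45 ± 0.12 (adjusted p = 0.041) in Q311E against wild type, by 1.02 ± 0.12 (0.00839) in Q311E against vector and by 0.57 ± 0.12 (0.0398) in wild type against vector. ARNT, the stable partner, rose by 0.44 ± 0.10 (0.0336) in Q311E against wild type. SIAH2, a ubiquitin ligase for EGLN enzymes, fell by 0.41 ± 0.11 (0.0484) in Q311E against wild type and by 0.68 ± 0.11 (0.0183) in Q311E against vector. ELOC, a subunit of the VHL ligase, fell by 0.49 ± 0.08 (0.0177) in Q311E against vector. EP300, which encodes p300, rose by 0.55 ± 0.12 (0.0445) in wild type against vector.

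Of the secreted HIF targets, VEGFA and ADM went different ways against vector, while both were higher in Q311E than in wild type. VEGFA, the main growth factor of blood vessels, was at 9.74 and 13.0 FPKM in Q311E A and B, 8.64 and 8.05 FPKM in wild type, and 15.1 and 15.97 FPKM in vector. The 3 lines did not overlap, with vector highest. VEGFA fell by 0.83 ± 0.14 in wild type against vector (adjusted p = 0.0241; 0.145 to 0.201 without 1 wild-type or vector library). Its fold change was -0.43 ± 0.14 in Q311E against vector (0.0909) and 0.40 ± 0.14 in Q311E against wild type (0.0858). ADM, the vasodilator peptide adrenomedullin, was at 37.3 and 36.1 FPKM in Q311E, 25.2 and 24.9 FPKM in wild type, and 18.9 and 21.5 FPKM in vector. Both Q311E libraries were above the other 4 and close to each other. ADM rose by 0.83 ± 0.09 in Q311E against vector (adjusted p = 0.00682; 0.0856 without vector A and 0.0726 without vector B) and by 0.53 ± 0.09 in Q311E against wild type (0.0143; 0.126 and 0.135 without wild type A and B). In wild type against vector its fold change was 0.30 ± 0.09 (0.0802).

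CA9, a carbonic anhydrase at the cell surface that is widely used as a marker of hypoxia, gave the widest gap between the Q311E libraries among the 38 tested members. It was at 1.70 FPKM in Q311E A (58 reads), 15.3 FPKM in Q311E B (532 reads), 1.36 and 1.75 FPKM in wild type (50 and 60 reads), and 4.07 and 7.65 FPKM in vector (158 and 254 reads). Q311E A was thus at the wild-type level while Q311E B was above all other libraries, with a ratio of B over A of 9.03. The fold change was 1.38 ± 0.83 in Q311E against wild type (adjusted p = 0.248), 0.00 ± 0.83 in Q311E against vector (0.999) and -1.38 ± 0.83 in wild type against vector (0.304). CA9 shares 38.5% of its exon bases with ARHGEF39 on the opposite strand, and whether reads were counted by strand is not given in the sources used here. ARHGEF39 itself lay between 1.63 and 2.16 FPKM in all libraries. CA12, another surface carbonic anhydrase, had between 0 and 3 reads per library and was not tested.

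NDRG1, EGLN3, DDIT4 and BNIP3 shared with CA9 a Q311E B value at least 1 log2 unit above Q311E A. These 5 of 14 targets compare with 2.14% of all tested genes, no target was as far below (1.22% of all genes), and the median of B over A was 0.87 for the HIF targets, with 12 of 14 higher in B, and 0.26 for the enzymes. In wild type the HIF target median of B over A was -0.01, and in vector it was 0.22, with 13 of 14 higher in B. NDRG1, a stress-induced gene, was at 0.981 and 8.37 FPKM in Q311E A and B, 0.304 and 0.310 FPKM in wild type, and 1.49 and 2.31 FPKM in vector. Both wild-type libraries were lowest, with 68 and 65 reads, yet NDRG1 was not called in Q311E against wild type (1.72 ± 0.70, adjusted p = 0.116). EGLN3, the HIF-induced prolyl hydroxylase that feeds back on HIF, was at 1.62 and 7.04 FPKM in Q311E A and B, 1.41 and 1.47 FPKM in wild type, and 2.64 and 3.35 FPKM in vector. Only Q311E B exceeded vector. EGLN1, the main prolyl hydroxylase in most cells, spanned 5.01 to 8.51 FPKM over the libraries and was not called. CD14 and CDH5 were also higher in Q311E B than in Q311E A, as given above, and the part of other cell types in it was not tested.

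DDIT4, an inhibitor of mTOR signalling, was at 50.2 and 189.7 FPKM in Q311E A and B, 16.8 and 16.7 FPKM in wild type, and 106 and 148 FPKM in vector. The wild-type libraries were far below all others, and Q311E A and B lay on either side of vector. DDIT4 fell by 2.83 ± 0.60 in wild type against vector (adjusted p = 0.0411; 0.172 to 0.260 without 1 wild-type or vector library). It rose by 2.48 ± 0.60 in Q311E against wild type (0.0349; 0.0806 to 0.173 without 1 wild-type or vector library), and its fold change against vector was -0.35 ± 0.60 (0.711). It shares 41.2% of its exon bases with DDIT4-AS1 on the opposite strand.

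BHLHE40, a transcriptional repressor, was at 20.5 and 37.8 FPKM in Q311E A and B, 4.03 and 4.19 FPKM in wild type, and 14.4 and 18.0 FPKM in vector. The 3 lines did not overlap, with Q311E highest and wild type lowest. It rose by 2.50 ± 0.28 in Q311E against wild type (adjusted p = 0.0073; 0.086 and 0.0838 without wild type A and B) and fell by 1.74 ± 0.28 in wild type against vector (0.0221; 0.126 to 0.188 without 1 wild-type or vector library). Against vector the Q311E fold change was 0.76 ± 0.28 (0.12). MXI1, an antagonist of MYC, was at 3.55 and 7.42 FPKM in Q311E A and B, 1.90 and 1.58 FPKM in wild type, and 3.27 and 3.99 FPKM in vector. MXI1 rose by 1.18 ± 0.29 in Q311E against wild type (0.038; 0.0865 to 0.193 without 1 wild-type or vector library), and Q311E overlapped vector.

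**Figure D4:**
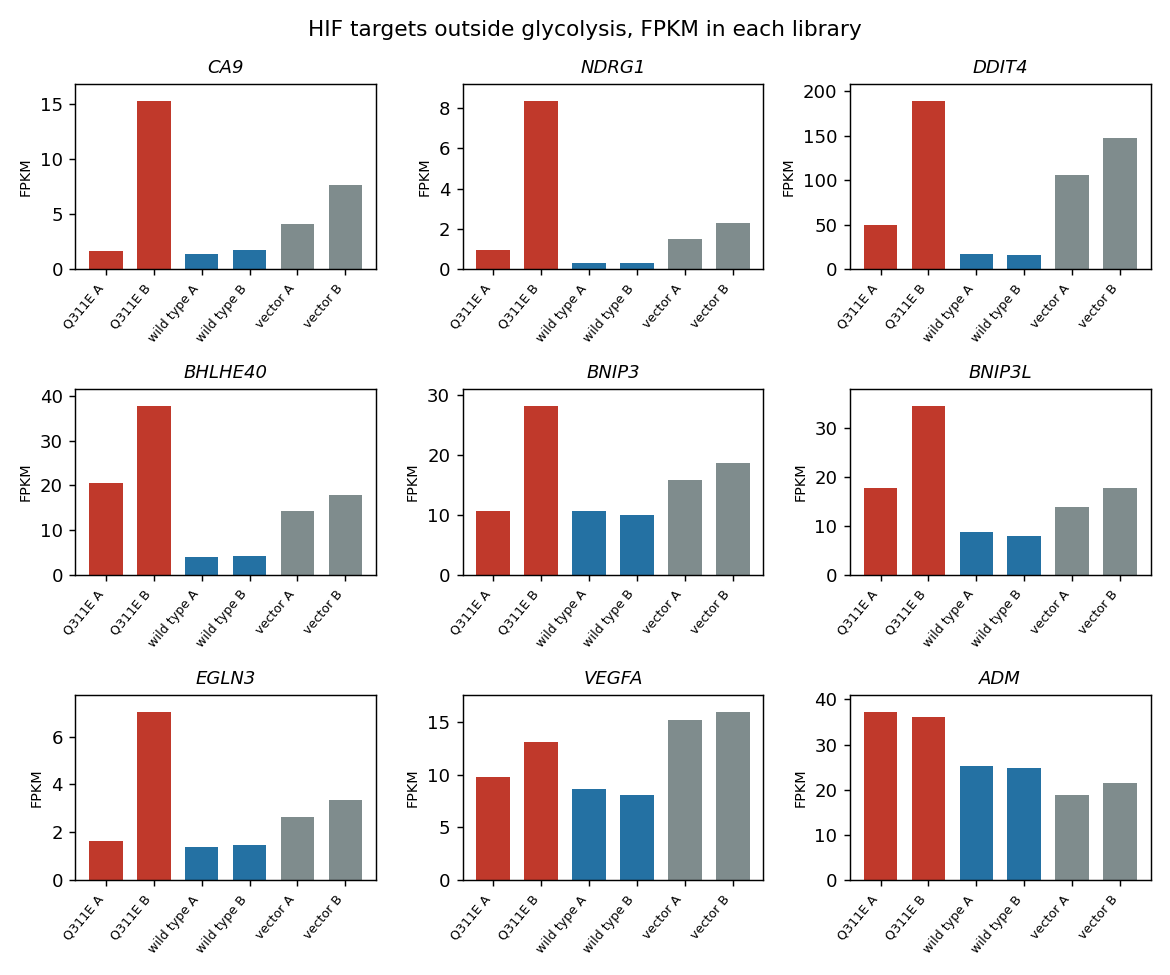
FPKM of 9 HIF targets outside glycolysis in each of the 6 libraries, with Q311E in red, wild type in blue and vector in grey, and axes that start at 0. In 8 of the panels Q311E B exceeds Q311E A, by 9.03 times for CA9 and 1.34 times for VEGFA, while ADM is at 37.3 and 36.1 FPKM in Q311E A and B.

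The mitophagy receptors BNIP3 and BNIP3L were both highest in Q311E B. BNIP3L was at 17.8 and 34.4 FPKM in Q311E A and B, 8.64 and 7.92 FPKM in wild type, and 13.8 and 17.8 FPKM in vector. It rose by 1.47 ± 0.31 in Q311E against wild type (adjusted p = 0.025; 0.064 to 0.155 without 1 wild-type or vector library), and Q311E A overlapped vector. BNIP3 was at 10.7 and 28.2 FPKM in Q311E A and B, 10.7 and 10.0 FPKM in wild type, and 15.9 and 18.7 FPKM in vector, and was not called. GENCODE 29 names 39 pseudogenes after BNIP3, so that its reads could be split among copies.

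Of the oxygen-dependent enzymes among the members, KDM3A, P4HA1 and P4HA2 were not called in any comparison of the fit of all 6 libraries. KDM3A, a histone demethylase, was at 3.62 and 5.57 FPKM in Q311E A and B, 2.85 and 2.83 FPKM in wild type, and 2.80 and 2.94 FPKM in vector. P4HA1, a collagen prolyl hydroxylase subunit, was at 21.0 and 35.7 FPKM in Q311E A and B, 15.4 and 14.9 FPKM in wild type, and 17.3 and 19.4 FPKM in vector, with adjusted p = 0.0556 in Q311E against wild type. Both had Q311E above the other lines without overlap. Its paralog P4HA2 went the other way between the Q311E libraries, with 18.6 FPKM in A and 11.004 FPKM in B, against 10.8 and 11.7 FPKM in wild type and 12.6 and 12.7 FPKM in vector. ANGPTL4, a secreted inhibitor of lipoprotein lipase, did not reach the filter, with 0.304 and 0.766 FPKM in Q311E, 0.974 and 0.853 FPKM in wild type, and 0.134 and 0.117 FPKM in vector. ANKRD37 did not reach it either, with 0.647 and 1.62 FPKM in Q311E A and B and between 0.562 and 0.778 FPKM elsewhere.

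Among the transporters and flux regulators, 5 of 6 were tested. In Q311E against wild type 2 rose and 1 fell, and in wild type against vector 1 rose. In Q311E against vector 0 were called, with adjusted p between 0.0981 and 0.952. The shares of all genes called were 27.5% in Q311E against wild type, 12.3% in wild type against vector and 18.0% in Q311E against vector. SLC2A1, the main glucose importer of epithelial cells, was at 65.4 and 75.0 FPKM in Q311E A and B, 52.0 and 51.4 FPKM in wild type, and 58.9 and 61.1 FPKM in vector. The lines did not overlap, and SLC2A1 rose by 0.43 ± 0.09 in Q311E against wild type (adjusted p = 0.0258; 0.0744 to 0.18 without 1 wild-type or vector library; 0.0572 after median scaling). SLC16A3, the lactate exporter of glycolytic cells, was at 10.7 and 10.4 FPKM in Q311E, 7.93 and 7.67 FPKM in wild type, and 8.80 and 9.05 FPKM in vector. It rose by 0.39 ± 0.07 in Q311E against wild type (0.0196; 0.0642 to 0.172 without 1 wild-type or vector library; 0.0556 on TPM). SLC2A3, the neuronal glucose importer, had at most 20 reads in a library and was not tested.

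PFKFB4 and PFKFB3 make and break down the activator of phosphofructokinase. PFKFB4 was at 1.33 and 1.10 FPKM in Q311E, 2.46 and 2.47 FPKM in wild type, and 0.956 and 0.722 FPKM in vector, so that wild type was highest. It rose by 0.92 ± 0.12 in wild type against vector (adjusted p = 0.0152; 0.0944 to 0.172 without 1 wild-type or vector library) and fell by 0.65 ± 0.12 in Q311E against wild type (0.0192; 0.0526 to 0.151). It was the one member called higher in wild type than in vector. PFKFB3 was at 7.52 and 12.2 FPKM in Q311E A and B, 6.75 and 6.67 FPKM in wild type, and 7.41 and 7.09 FPKM in vector. PDK1, a kinase that inactivates pyruvate dehydrogenase, was at 1.40 and 3.10 FPKM in Q311E A and B, 1.55 and 1.42 FPKM in wild type, and 2.14 and 2.25 FPKM in vector. Neither PFKFB3 nor PDK1 was called.

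Along the glycolytic chain, most steps stayed within a narrow range. GAPDH, the enzyme most used as a reference transcript, was at 1190.4 and 1349 FPKM in Q311E A and B, 1419.8 and 1498 FPKM in wild type, and 1279 and 1294 FPKM in vector. Its fold change lay between -0.20 and 0.18 in the 3 comparisons, with adjusted p between 0.279 and 0.921. LDHA, which reduces pyruvate to lactate, was at 197 and 242 FPKM in Q311E A and B, 246 and 255 FPKM in wild type, and 262 and 281 FPKM in vector. Q311E A was lowest, and LDHA was not called, with fold changes between -0.31 and -0.11 and adjusted p between 0.141 and 0.562. The upper-chain enzymes HK1, HK2 and GPI, which phosphorylate and rearrange glucose, were also not called. HK2, the hexokinase usually linked to HIF, was at 13.8 and 17.3 FPKM in Q311E A and B, 18.3 and 17.1 FPKM in wild type, and 22.1 and 19.8 FPKM in vector, below vector in both MB21D2 lines.

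In the lower chain, TPI1, PGK1, PGAM1, ENO1, ENO2 and PKM were not called in any comparison. The triose and phosphoglycerate enzymes had their lowest value in Q311E A, with TPI1 at 267 FPKM, PGK1 at 109 FPKM and PGAM1 at 232 FPKM there. In the other libraries TPI1 ran from 333 to 389 FPKM, PGK1 from 110.0 to 159 FPKM and PGAM1 from 255 to 355 FPKM. PKM, the last enzyme before lactate, spanned 400.4 to 438 FPKM over all libraries. ENO1, the main enolase, was at 614 and 658 FPKM in Q311E A and B, 769 and 787 FPKM in wild type, and 739.5 and 774 FPKM in vector. ENO2, the neuronal enolase, was far scarcer, at 0.583 to 2.13 FPKM. GENCODE 29 names 62 pseudogenes after GAPDH and 13 after PGAM1, so levels of these genes depend on how reads shared with copies were counted.

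The enzymes called in at least 1 comparison were ALDOC, PFKL, PFKM and LDHB. ALDOC, the brain-type aldolase and a known HIF target, was at 6.23 and 15.8 FPKM in Q311E A and B, 0.671 and 0.987 FPKM in wild type, and 2.74 and 3.71 FPKM in vector. The 3 lines did not overlap, in the same order as for BHLHE40. ALDOC rose by 2.60 ± 0.40 in Q311E against wild type (adjusted p = 0.013; 0.107 and 0.103 without wild type A and B), and its fold change was 1.39 ± 0.40 in Q311E against vector (0.0682) and -1.20 ± 0.40 in wild type against vector (0.109). ALDOA, the general aldolase, lay between 9.54 and 13.6 FPKM in all libraries and was not called. It shares 42.3% of its exon bases with AC093512.2 on the same strand, which was at 0.935 to 1.45 FPKM, so the level of ALDOA is uncertain.

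The phosphofructokinase genes, which encode the committed step, had calls in both directions. PFKL, the liver-type subunit, was at 32.2 and 38.3 FPKM in Q311E A and B, 19.0 and 19.8 FPKM in wild type, and 25.6 and 28.2 FPKM in vector. It rose by 0.83 ± 0.11 in Q311E against wild type (adjusted p = 0.00904; 0.101 and 0.1 without wild type A and B), with 0.37 ± 0.11 (0.0688) in Q311E against vector and -0.45 ± 0.11 (0.0538) in wild type against vector. PFKM, the muscle-type subunit, was at 9.64 and 9.44 FPKM in Q311E, 13.5 FPKM in both wild-type libraries, and 14.7 and 13.5 FPKM in vector. It fell by 0.52 ± 0.08 in Q311E against vector (0.0143; 0.131 and 0.0944 without vector A and B, 0.0726 and 0.0722 without wild type A and B) and by 0.46 ± 0.08 in Q311E against wild type (0.0156; 0.136 and 0.144 without wild type A and B). The ratio of PFKL over PFKM was 3.34 and 4.06 in Q311E, 1.41 and 1.46 in wild type, and 1.74 and 2.09 in vector. PFKP, the platelet-type subunit, lay between 24.97 and 32.6 FPKM and was not called. The sum of the 3 subunits was 66.8 and 77.7 FPKM in Q311E A and B, 60.3 and 61.7 FPKM in wild type, and 72.3 and 74.3 FPKM in vector.

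LDHB, the heart-type lactate dehydrogenase subunit, was the one member called in all 3 comparisons. It was at 7.69 and 7.43 FPKM in Q311E, 10.95 and 11.6 FPKM in wild type, and 24.6 and 26.8 FPKM in vector. The Q311E libraries agreed closely, and the 3 lines did not overlap. LDHB fell by 1.64 ± 0.08 in Q311E against vector (adjusted p = 0.00187; 0.0695 and 0.0521 without vector A and B), by 0.52 ± 0.08 in Q311E against wild type (0.0136; 0.113 and 0.137 without wild type A and B) and by 1.12 ± 0.08 in wild type against vector (0.00604; 0.086 to 0.12 without 1 wild-type or vector library). LDHA over LDHB was 25.6 and 32.6 in Q311E A and B, 22.5 and 21.9 in wild type, and 10.7 and 10.5 in vector. LDHB shares 33.4% of its exon bases with AC010197.2 on the same strand, which was at most 0.00911 FPKM.

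**Figure D5:**
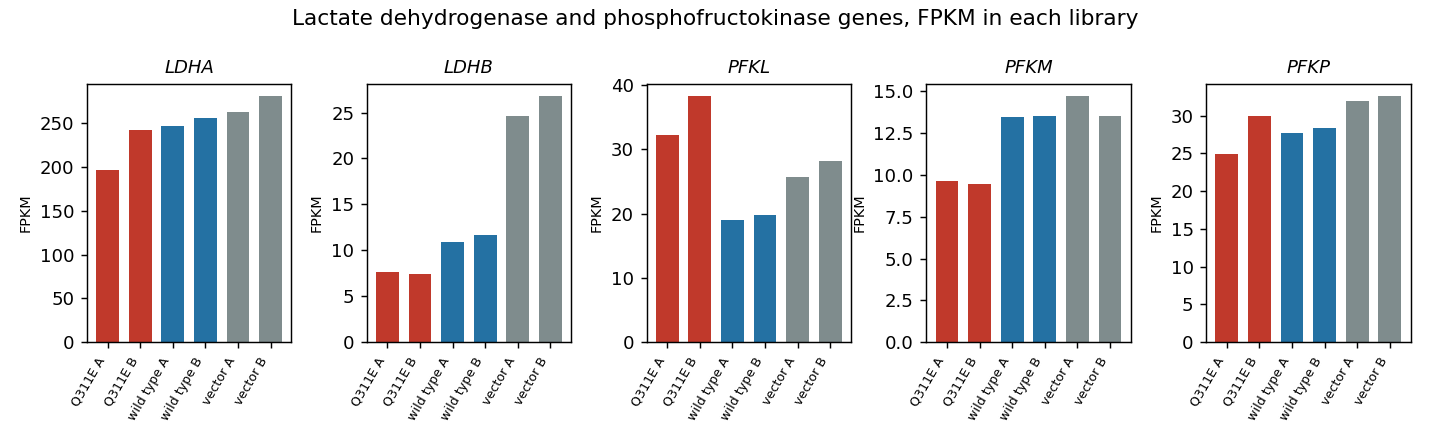
FPKM of the lactate dehydrogenase genes LDHA and LDHB and the phosphofructokinase genes PFKL, PFKM and PFKP in each library, with Q311E in red, wild type in blue and vector in grey, and axes that start at 0. LDHB is at 7.69 and 7.43 FPKM in Q311E, 10.95 and 11.6 FPKM in wild type and 24.6 and 26.8 FPKM in vector, while LDHA spans 197 to 281 FPKM.

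A further list of 34 hypoxia-induced genes outside the 42, of which 28 were tested, was counted in the same fit. Calls of genes outside the 42 were not recomputed without single libraries. In Q311E against wild type 9 rose and 0 fell, in Q311E against vector 3 rose and 1 fell, and in wild type against vector 1 rose and 4 fell. These are 32.1%, 14.3% and 17.9% of the 28, against 27.5%, 18.0% and 12.3% of all genes. The medians were 0.38, 0.19 and -0.31. PLOD2, a collagen lysyl hydroxylase, rose by 0.73 ± 0.09 in Q311E against wild type (adjusted p = 0.00897) and fell by 0.53 ± 0.09 in wild type against vector (0.0275). CCNG2, an atypical cyclin, rose by 1.50 ± 0.20 (0.00931) and TMEM45A by 0.66 ± 0.09 (0.0111) in Q311E against wild type. PLAUR, the urokinase receptor, rose by 1.13 ± 0.15 in Q311E against vector (0.0124). STC1, a secreted glycoprotein, showed a wider gap than CA9, with 2.07 and 26.1 FPKM in Q311E A and B, 1.07 and 1.25 FPKM in wild type, and 7.23 and 9.96 FPKM in vector, and was not called.

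Of 18 genes of the side branches of glycolysis, 16 were tested, and 5 rose in Q311E against wild type, 3 fell in Q311E against vector and 2 fell in wild type against vector. These are 31.2%, 18.8% and 12.5% of the 16, near the 27.5%, 18.0% and 12.3% of all genes. The genes that fell belong to serine synthesis. PHGDH, its first enzyme, fell by 0.86 ± 0.08 in Q311E (adjusted p = 0.0056) and by 0.79 ± 0.08 in wild type (0.00867) against vector, and PSPH, its last enzyme, by 0.45 ± 0.09 (0.0252) and 0.52 ± 0.09 (0.0231). PSAT1, the middle enzyme, fell by 1.15 ± 0.26 in Q311E against vector (0.0382). Of 19 genes that govern the fate of pyruvate, 17 were tested, with 7 higher and 3 lower in Q311E against wild type, 1 higher and 6 lower in Q311E against vector, and 0 higher and 5 lower in wild type against vector. These are 58.8%, 41.2% and 29.4% of the 17, against the same shares of all genes. MPC1, a subunit of the mitochondrial pyruvate carrier, was at 21.9 and 21.5 FPKM in Q311E, 18.4 and 18.0 FPKM in wild type, and 27.8 and 28.1 FPKM in vector, and it fell by 0.35 ± 0.07 (0.0263) and 0.59 ± 0.07 (0.0113) against vector. PDHA1, the catalytic subunit of pyruvate dehydrogenase, fell by 0.44 ± 0.07 in Q311E against vector (0.0177). SLC16A1, the other main lactate transporter, fell by 0.73 ± 0.15 in Q311E against wild type (0.0261), the direction opposite to that of SLC16A3.

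The genes next to the called members were examined for shared shifts of a chromosome region. Over the 15 tested genes on each side, the median log2 fold change was between -0.19 and 0.16 around the 12 members called in Q311E against wild type, between -0.03 and -0.01 around the 3 called in Q311E against vector, and between -0.18 and 0.12 around the 5 called in wild type against vector.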

How the data were processed

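RNA-seq was run on 6 libraries of 3 stable CAL27 lines (2 each), and samples were grouped by their titles. The authors deposited 1 table of FPKM for 30178 Ensembl gene IDs. CASAVA, mm8 and mm9 are named in the submitters' processing notes, although the IDs are human; aligner, counter, annotation and strand setting were not given in the sources used here. Symbols came from the reference tables (29993 IDs matched). The 11481 genes whose mean FPKM reached 1 were tested on log2(FPKM + 1) with limma 3.58.1 in R 4.3.3: 3 groups in 1 fit, no covariate, an intensity trend, 3 residual degrees of freedom and Benjamini-Hochberg adjustment over all tested genes. FPKM steps gave whole reads, within 0.001 of a whole number, for 30030 genes (99.51%). For 22361 genes this held at the GENCODE 29 exon length. For the rest the nearest other length that gave whole reads was used. On those reads limma-voom with TMM called 2109 genes in Q311E against vector, 1306 in wild type against vector and 3410 in Q311E against wild type. The main fit called 2061, 1412 and 3162. Simulated data with 200 changed genes served to check the fit. Tables and figures were made with Python 3.11.15.

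Members and lists were chosen with earlier results of these data known. Values are given for each member called in any comparison and for HIF1A, VEGFA, CA9, SLC2A1, GAPDH and LDHA; from other lists at most 4 called genes per comparison, by smallest p, are named. 1 gene named by that rule is not reported here. STC1 was singled out after its values were seen. The labels do not say whether the letters A and B pair samples across lines. Correlations of deviations between same-lettered libraries were -0.006 for Q311E and wild type and -0.026 for wild type and vector. For Q311E and vector the correlation was 0.387. Alternatives covered pseudocount, filter, scaling, reads, groups in the fit, a replicate block and each library left out.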

Additional observations from a re-analysis of the deposited data

How the results depend on the processing

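Of the 20 calls among members, 20 were kept with a pseudocount of 0.1 and with limma-voom on recovered reads, 19 on TPM (SLC16A3 was lost, and EPAS1 and P4HA1 were gained in Q311E against wild type), 19 after median scaling (SLC2A1 was lost), 17 of 17 that could be tested with a mean FPKM of at least 5 (PFKL was gained in wild type against vector), and 11 with no filter. Without a filter, members called numbered 1 in wild type against vector and 7 in Q311E against wild type, against 5 and 12; over all genes the calls were 1210 (Q311E against vector), 393 and 1608. With only the 2 groups compared in the fit, members called numbered 27 in wild type against vector and 5 in Q311E against wild type, and 262, 5273 and 973 genes were called over all. The median of the glycolytic enzymes in wild type against vector was -0.121 after median scaling, against -0.195. Whether libraries that share a letter share more than that label is not given. The replicate block called 5 members in Q311E against vector, adding PFKL (adjusted p = 0.0469) and ALDOC (0.0337), and kept all 20 calls; elsewhere it added P4HA1 in Q311E against wild type and PFKL in wild type against vector.

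Leaving out 1 library gave between 0 and 25 called members in Q311E against vector, 0 and 27 in wild type against vector, and 0 and 30 in Q311E against wild type, where calls over all genes ran from 3 to 5662, 7 to 5238 and 0 to 6939. A lone library is then assumed to vary like the other groups. Members are counted here by sign, small differences included, such as -0.11 in Q311E A and 0.07 in Q311E B for GAPDH against vector. The share over all genes was not counted. The sign depended on which Q311E library was used for 16 of 38 tested members against vector and 8 of 38 against wild type. Listed next are those where the value with the sign opposite to that of the full fit was itself called. In Q311E against vector, without Q311E A and without Q311E B they were 0.48 and -0.31 for HIF1A, 0.62 and -0.36 for EPAS1, 1.30 and -1.30 for CA9, 0.68 and -0.64 for BNIP3, 1.01 and -0.60 for EGLN3, 0.60 and -1.30 for DDIT4, 0.36 and -0.41 for PDK1, and 0.24 and -0.30 for PGK1. In Q311E against wild type they were 0.22 and -0.32 for TPI1. The cause was not tested. With 2 libraries per line, a gap such as that between Q311E A and B sets the error of the affected genes, and genes with few reads, such as CA9 in wild type, carry more counting error.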

Other observations

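BPGM, which diverts a glycolytic intermediate and was not among the called genes, was at 3.76 and 12.9 FPKM in Q311E A and B, 4.21 and 4.47 FPKM in wild type, and 6.17 and 6.98 FPKM in vector. PDP1, the phosphatase that activates pyruvate dehydrogenase, was at 68.3 and 65.6 FPKM in Q311E, 39.1 and 37.0 FPKM in wild type, and 54.8 and 52.0 FPKM in vector. It rose by 0.80 ± 0.08 in Q311E against wild type (limma, adjusted p = 0.00514) and by 0.32 ± 0.08 in Q311E against vector (0.043), and fell by 0.48 ± 0.08 in wild type against vector (0.0216). PCK2, the mitochondrial enzyme that makes phosphoenolpyruvate, was at 5.83 and 5.34 FPKM in Q311E, 3.43 and 3.10 FPKM in wild type, and 8.47 and 8.53 FPKM in vector. It fell by 0.53 ± 0.09 in Q311E (0.0187) and by 1.16 ± 0.09 in wild type (0.00605) against vector. BPGM was chosen after its values were seen.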
